A study of Mus musculus with 4 samples.

Results

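The cortical layer identity transcription factors described here are 9 genes, Cux1, Cux2, Rorb, Bcl11a, Bcl11b, Fezf2, Tbr1, Tle4 and Foxp2, out of 45706 genes in the count table. They were taken by symbol, as known identity genes of upper-layer and deep-layer projection neurons, and not by their values, and all 9 were found. RNA was measured in 4 replicate libraries of medial basal radial glial cells, progenitors with a basal process and no contact with the ventricle, from the neocortex of E18.5 mouse embryos. All 4 libraries had the strain C57BL/6JOlaHsd and the genotype Tubb-GFP/+, and their titles name the lipophilic dye DiI. There was a single group, without a control. Nothing states whether the libraries came from separate embryos or pools, or how reporter and dye were used, so each p-value below measures only the spread between these libraries, which may be technical.

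The projection neurons of the neocortex are made inside out: deep-layer neurons that project to the thalamus, brainstem and spinal cord are born first, and upper-layer neurons that connect cortical areas are born last. Their identities are held apart by transcription factors that repress each other. Fezf2 directs the subcerebral fate and acts largely through Bcl11b, and Tbr1 directs the corticothalamic fate and represses Fezf2 and Bcl11b. The Cux factors shape the dendrites and spines of upper-layer neurons. Late in neurogenesis, the stage sampled here, upper-layer neurons are still arriving in the cortical plate.

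Library totals ran from 26540656 to 34837657 counts. The markers of the labelled cells were present. All 11 radial glia genes lay above 1 TPM (a length-corrected share of the library's transcripts). By the same test 75.7% of protein-coding genes did, so this count alone says little about cell identity. Fabp7, which encodes a fatty acid carrier of radial glia, was at 4631 ± 382 TPM (SD, n = 4). Hopx, the gene in the series' title, was at 3.03 ± 0.41 TPM. Of the exonic bases of Hopx 27.2% lie opposite another gene, and its deposited TPM was 0.573. Neuronal transcripts were also present: the 8 neuron markers together held 9590 to 10692 TPM, against 5055 to 6152 TPM for the 11 radial glia markers. Most of the neuron sum came from Tubb3 (6691 ± 496 TPM) and most of the radial glia sum from Fabp7. The 2 sums thus rest largely on these genes and give no share of cells. The neuron list was also higher by its median, at 334 TPM against 32.9 TPM for the radial glia list. Of the 8 neuron markers 7 lay above 1 TPM, among them Neurod6 (1791 ± 70.3 TPM) and Gap43 (662 ± 38.9 TPM). The lowest, Slc17a7, was at 1.01 ± 0.174 TPM and was not called. In bulk RNA the source cell of a transcript is unknown, and fewer cells of a type and less RNA per cell cannot be told apart. The parts of neurons and of the radial glia themselves in the levels below were not tested.

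All 9 genes lay above 1 TPM, in an order led by 2 upper-layer genes and Bcl11a and ended by the deep-layer gene Foxp2. Levels are counts per merged exon length, as TPM within each library. The counter is not stated, so whether intronic reads were counted is unknown. Any such reads would raise the levels of genes with long introns on this scale. By edgeR's quasi-likelihood test against 1 TPM, adjusted over 20991 genes, p ran from 5.61e-19 for Cux1 to 2.51e-09 for Foxp2. The same test placed 65.9% of all genes and 75.7% of protein-coding genes above 1 TPM, so the count alone does not set these genes apart. With the longest transcript as length all 9 were again above, as were 64.2% of all genes; on the deposited TPM limma placed 8 above, as it did 64.5% of the genes listed there. Their median level on the log2(TPM + 1) scale was 4.22, against 2.505 over all genes tested and 3.31 over protein-coding genes. Among 15401 protein-coding genes, Cux1 stood at percentile 84.3 by TPM and Foxp2 at percentile 39.2.

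**Figure D1:**
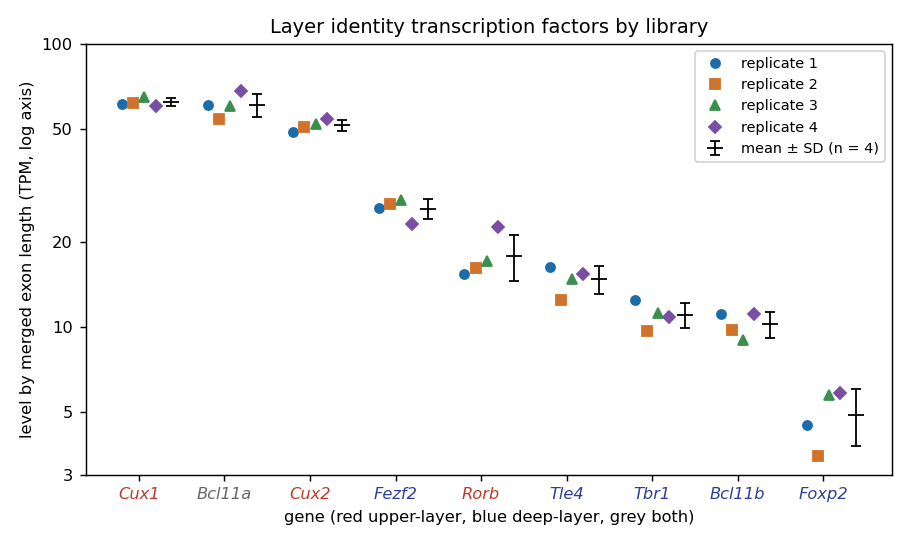
Level of each gene in TPM by merged exon length (log axis), with the 4 libraries as separate symbols and the mean ± SD beside them; red names are upper-layer, blue deep-layer, and Bcl11a is grey. Cux1, Bcl11a and Cux2 lie between 48.8 and 68.4 TPM in every library, and Foxp2 lies below 6 TPM in every library.

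Cux1 and Cux2 encode homeodomain proteins with CUT repeats that mark upper-layer neurons. Cux1 (ENSMUSG00000029705; GRCm38 chromosome 5, 136248135 to 136567490, minus strand) was at 61.3, 61.9, 65.1 and 60.5 TPM in replicates 1 to 4, or 62.2 ± 2.02 TPM (SD, n = 4), from 10979, 13958, 12523 and 9978 counts. Cux2 (ENSMUSG00000042589; chromosome 5, 121856366 to 122050102, minus strand) was at 48.8, 51.0, 52.3 and 54.1 TPM, or 51.6 ± 2.26 TPM, from 4402 to 5783 counts. The values of the Cux genes did not overlap: the lowest Cux1 library was above the highest Cux2 library. Rorb, an orphan nuclear receptor of the granular layer that receives thalamic input, was the lowest upper-layer gene. Its values were 15.4, 16.2, 17.1 and 22.6 TPM, or 17.8 ± 3.24 TPM (ENSMUSG00000036192; chromosome 19, 18930605 to 19111196, minus strand). Replicate 4 was its highest library.

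Bcl11a, a zinc-finger protein used in upper and deep layers, had a mean level next to that of Cux1. Its values were 60.7, 54.3, 60.5 and 68.4 TPM, or 61.0 ± 5.78 TPM (SD, n = 4; ENSMUSG00000000861; chromosome 11, 24078056 to 24174123, plus strand). Replicate 4 was high and replicate 2 low. An antisense gene, 4930538E20Rik, shares 2.40% of the exonic bases of Bcl11a, and Gm16599 shares 1.97% of those of Cux1. The protocol describes no step that marks strand, so reads of such partners cannot be told apart. The other 7 genes share no exonic base with a gene on the opposite strand.

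The genes of the subcerebral fate were Fezf2 and Bcl11b. Fezf2, a zinc-finger protein that selects that fate, was the highest deep-layer gene, at 26.4, 27.1, 28.0 and 23.1 TPM, or 26.2 ± 2.15 TPM (SD, n = 4; ENSMUSG00000021743; chromosome 14, 12342094 to 12348189, minus strand). Replicate 4 was its lowest library. Bcl11b, which acts downstream of Fezf2 in axon growth to the spinal cord, was at 11.1, 9.76, 8.96 and 11.1 TPM, or 10.2 ± 1.06 TPM (ENSMUSG00000048251; chromosome 12, 107910403 to 108003602, minus strand). Fezf2 exceeded Bcl11b in each library, and their ranges did not overlap.

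Of the corticothalamic genes, Tle4 was highest and Foxp2 lowest. Tle4, a Groucho corepressor that binds no DNA by itself, was at 16.3, 12.4, 14.8 and 15.3 TPM, or 14.7 ± 1.66 TPM (SD, n = 4; ENSMUSG00000024642; chromosome 19, 14448150 to 14598051, minus strand). The T-box factor Tbr1 was at 12.5, 9.70, 11.2 and 10.9 TPM, or 11.1 ± 1.14 TPM (ENSMUSG00000035033; chromosome 2, 61802930 to 61814114, plus strand). In both genes replicate 1 was highest and replicate 2 lowest. The forkhead factor Foxp2 was at 4.51, 3.49, 5.75 and 5.84 TPM, or 4.90 ± 1.12 TPM (ENSMUSG00000029563; chromosome 6, 14901349 to 15441977, plus strand). Its replicate 2 was also the lowest library, and its range did not touch that of any other of the 9 genes.

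The promoters of 4 of these genes are shown as examples, 2 of upper-layer genes (Cux2, Rorb) and 2 of deep-layer genes (Tbr1, Fezf2), to let their base composition and motifs be compared. Each is the 250 bases before a RefSeq start in GRCm38.p6, 5′ to 3′ on the gene's strand: Cux2 at chr5:122049852-122050101, Rorb at chr19:19111197-19111446, Tbr1 at chr2:61804203-61804452 on the plus strand and Fezf2 at chr14:12345866-12346115, with the others on the minus strand. The Cux2, Tbr1 and Fezf2 windows lie inside the gene spans given above, downstream of the outermost annotated start, and the Rorb window lies outside its gene span. Capitals mark matches, on both strands, to TAATTA (a core bound by many homeodomain proteins), the CCAAT box, the TATA box written as TATAAA, the E-box CAGATG bound by neurogenic factors, the E-box CAGCTG and the GC box GGGCGG. No motif contains another of them.
Cux2: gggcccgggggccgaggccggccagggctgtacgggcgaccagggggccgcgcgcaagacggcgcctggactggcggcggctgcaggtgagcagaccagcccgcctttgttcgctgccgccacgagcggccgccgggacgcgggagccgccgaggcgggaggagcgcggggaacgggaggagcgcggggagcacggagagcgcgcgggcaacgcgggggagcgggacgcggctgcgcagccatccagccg
Rorb: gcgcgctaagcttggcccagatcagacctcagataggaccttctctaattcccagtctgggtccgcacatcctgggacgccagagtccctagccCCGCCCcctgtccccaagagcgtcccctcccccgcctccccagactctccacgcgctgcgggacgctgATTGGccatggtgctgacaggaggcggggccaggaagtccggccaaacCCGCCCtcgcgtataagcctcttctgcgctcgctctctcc
Tbr1: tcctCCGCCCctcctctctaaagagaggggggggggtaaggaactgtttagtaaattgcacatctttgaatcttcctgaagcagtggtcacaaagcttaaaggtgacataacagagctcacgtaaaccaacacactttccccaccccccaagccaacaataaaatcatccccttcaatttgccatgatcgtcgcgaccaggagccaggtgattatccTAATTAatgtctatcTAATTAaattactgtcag
Fezf2: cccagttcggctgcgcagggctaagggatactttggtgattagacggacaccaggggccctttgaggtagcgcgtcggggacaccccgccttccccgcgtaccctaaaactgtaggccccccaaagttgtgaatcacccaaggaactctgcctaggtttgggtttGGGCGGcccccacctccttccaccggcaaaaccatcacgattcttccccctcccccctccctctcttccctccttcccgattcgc

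The promoters differed widely in base composition. The Cux2 window shown had 80.0% G and C and 40 CpG, more CpG than 98.7% of 32841 RefSeq promoter windows of this length, and held none of the motifs. The Tbr1 window had 45.2% G and C and 5 CpG, against medians of 52.4% and 6 over all windows. It held 2 TAATTA matches, a motif found in 4.84% of all windows and in 1 of the 11 windows matched to these genes. The Rorb window held 2 GC boxes, present in 32.7% of all windows, and 1 CCAAT, present in 33.9%. Fezf2 held 1 GC box. In none of the 4 windows shown was there a TATA box, an E-box CAGATG or an E-box CAGCTG, which 12.4%, 14.4% and 13.002% of all windows hold. Cux2 and Rorb each have another RefSeq start, whose window is not shown. That of Cux2 (chr5:122047826-122048075) had 55.2% G and C, 3 CpG, 1 TATA box and 1 E-box CAGATG. That of Rorb had 39.2% G and C, 4 CpG and none of the motifs. The composition above thus belongs to the windows shown and not to the genes. The table matched 8 of the 9 genes, with no entry for Foxp2. A match here is a run of letters and no evidence of binding.

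The order of the genes held in every library at 5 of its 8 steps, and not at the top step. Of 8 pairs of neighbours, 5 had the same order in all 4 libraries with a mean log2 ratio above its SD. With 4 libraries, the smallest p of the exact two-sided sign-flip permutation test is 0.13 (0.20 after adjustment over the 8 pairs), so no pair could pass 0.05. The largest steps were Cux2 over Fezf2, with a log2((TPM + 1)/(TPM + 1)) ratio of 0.95 ± 0.16 (SD, n = 4; exact permutation p = 0.13), and Bcl11b over Foxp2, at 0.94 ± 0.31 with the same p. Tle4 over Tbr1 was smaller but steady, at 0.38 ± 0.057. Fezf2 over Rorb was 0.54 ± 0.34, and only 0.033 in replicate 4, where Rorb was high and Fezf2 low; it was 0.71 ± 0.028 without that library.

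The pairs that did not separate were Cux1 and Bcl11a (0.032 ± 0.16; exact permutation p = 0.625, adjusted 0.625), Rorb and Tle4 (0.25 ± 0.26; exact permutation p = 0.25, adjusted 0.333) and Tbr1 and Bcl11b (0.10 ± 0.15; exact permutation p = 0.5, adjusted 0.571). Cux1 was above Bcl11a in 3 of 4 libraries, Rorb above Tle4 in 3 and Tbr1 above Bcl11b in 2. Cux1 and Bcl11a separated without replicate 4 (0.10 ± 0.086), and Rorb and Tle4 without replicate 1 (0.36 ± 0.17). Of all 36 pairs among the 9 genes, these 3 were the only ones whose order was not the same in every library with a mean above its SD.

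On the exon scale, the upper-layer genes summed to a higher level than the deep-layer genes, and on the deposited TPM to a lower one. The 3 upper-layer genes summed to 125, 129, 135 and 137 TPM in replicates 1 to 4, and the 5 deep-layer genes to 70.8, 62.5, 68.7 and 66.3 TPM. The deep-layer sum was thus 0.51 ± 0.038 times the upper-layer sum (SD, n = 4). It was 0.50 ± 0.035 times with the longest transcript as length and 0.20 ± 0.015 times without length. On the deposited TPM it was 2.62 ± 0.22 times, with 70.6 ± 4.09 TPM for the deep-layer genes, mostly Fezf2 and Tbr1, and 27.0 ± 1.08 TPM for the upper-layer genes. By the median of log2(TPM + 1), deep minus upper was -1.89, -2.27, -2.13 and -2.19, a mean of -2.12 ± 0.17, and was negative in every library; on the deposited TPM it was -1.34. The upper-layer side rests on the Cux genes, since Rorb lay below Fezf2. These values describe 8 genes in mixed RNA and give no count of upper-layer or deep-layer neurons.

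Paralogs within a family ranged from close levels to differences of several fold. Of 15 pairs, 2 were between layer genes. In the 13 pairs of a layer gene with a paralog outside the 9, the layer gene was higher in all 4 libraries in 8 and lower in all 4 in 4 (smallest exact permutation p 0.13, adjusted over the 15 pairs 0.134). Cux1 exceeded Cux2 by a log2 ratio of 0.27 ± 0.075 (SD, n = 4). Bcl11a was 5.96 times as high as Bcl11b by mean TPM, with a log2 ratio of 2.46 ± 0.13. Rorb was 8.57 times as high as Rora (2.08 ± 0.56 TPM), the receptor used in thalamus and cerebellum. No read was counted for Fezf1, the olfactory and hypothalamic relative of Fezf2. Taking 3 counts per library as the floor, Fezf2 was at least 153-fold higher.

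**Figure D2:**
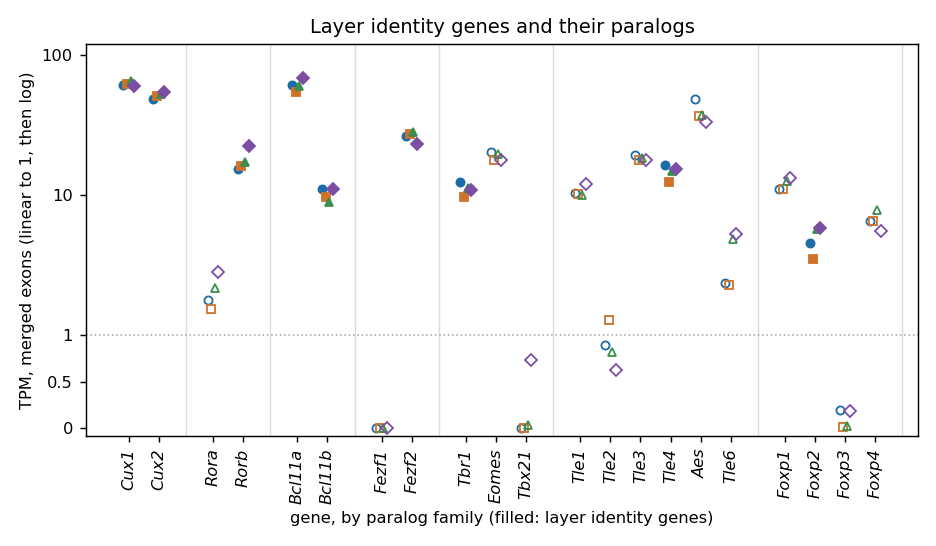
Level in TPM of each layer gene (filled symbols) and the paralogs reported here (open symbols), by family; circles, squares, triangles and diamonds are replicates 1 to 4, and the axis is linear up to 1 TPM (dotted line) and log above. Fezf1 is at 0 in all libraries, Rorb lies above Rora, and Tle4 and Foxp2 lie below 1 or more relatives.

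Tbr1, Tle4 and Foxp2 were each below a relative. Tbr1 was below Eomes, the T-box factor of intermediate progenitors (18.9 ± 1.24 TPM), at a log2 ratio of -0.73 ± 0.071 (SD, n = 4). Tbx21, the T-box factor of lymphocytes, had 0, 0, 1 and 15 counts in replicates 1 to 4, so its reads came nearly all from replicate 4. Tle4 was below Aes, a short Groucho protein (39.0 ± 6.52 TPM), at a log2 ratio of -1.34 ± 0.20, and below Tle3 (18.4 ± 0.733 TPM) at -0.31 ± 0.12. It was above Tle1 by 0.43 ± 0.16 on this scale, but the ratio turned to -0.19 ± 0.16 with the longest transcript as length, to -0.14 ± 0.17 without length correction and to -0.72 ± 0.12 on the deposited TPM. Tle2 (0.907 ± 0.277 TPM) and Tle6 (3.70 ± 1.61 TPM) were lower, though on the deposited TPM the ratio of Tle4 over Tle6 was -0.67 ± 0.49.

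Among the forkhead genes, Foxp1, which is shared by upper-layer and striatal neurons, was at 11.98 ± 1.11 TPM, above Foxp2 in each library (log2 ratio of Foxp2 over Foxp1 -1.15 ± 0.18, SD, n = 4). Foxp4 was at 6.59 ± 0.924 TPM and above Foxp2 in 3 of 4 libraries (-0.38 ± 0.34; exact permutation p = 0.25). Without replicate 4, where the order turned, it was -0.52 ± 0.20. The ratio of Foxp2 over Foxp4 was 0.46 ± 0.36 with the longest transcript as length and 1.21 ± 0.38 without length, so its direction depends on the length used. Foxp3, the factor of regulatory T cells, had 8, 1, 1 and 7 counts, with 18.7% of its exonic bases opposite another gene.

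Variation between libraries was smallest for Cux1 and Cux2 and largest for Foxp2 and Rorb. The coefficient of variation of TPM was 3.25% for Cux1 and 4.38% for Cux2, between 8.21% and 11.3% for Fezf2, Bcl11a, Tbr1, Bcl11b and Tle4, 18.2% for Rorb and 22.8% for Foxp2. The median over 6581 protein-coding genes in the same range of counts was 8.72%. Counting error alone gives 0.918% for Cux1, 2.32% for Rorb and 3.66% for Foxp2, so counting error was smaller than the spread in each of these genes. In edgeR's quasi-likelihood fit, the residual dispersion was 3.18 times its trend for Rorb (adjusted p = 0.974) and 3.46 times for Foxp2 (adjusted p = 0.974), and 0.292 to 1.14 times for the other 7 genes. None of the 9 was called more variable than genes of like abundance, by edgeR or as a DESeq2 dispersion outlier, and none had an unadjusted p under 0.05. Over 16706 genes edgeR called 0% and put 4.85% at an unadjusted p under 0.05, and DESeq2 marked 0.491%.

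**Figure D3:**
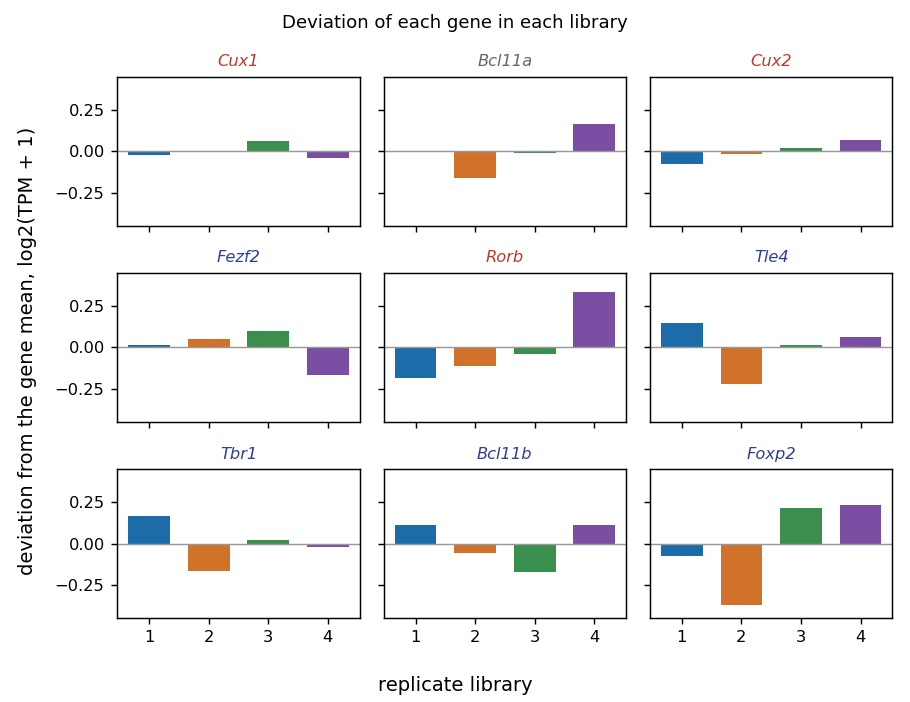
Deviation of each gene from its own mean over the 4 libraries on the log2(TPM + 1) scale, with a bar for each replicate library. Rorb is high in replicate 4 (0.34), Foxp2 is low in replicate 2 (-0.37), and the Cux genes stay within 0.08 of their means.

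In replicate 2, 8 of the 9 genes lay below their own mean and Fezf2 above it, but Cux1 (-0.0056) and Cux2 (-0.016) were almost at their means. In replicates 3 and 4, 6 of the 9 lay above. The matching shares over all genes were not computed, so these counts may belong to the libraries and not to these genes. Replicate 4 was the highest library for 5 of the 9 genes (Bcl11a, Cux2, Rorb, Bcl11b and Foxp2) and the lowest for Cux1 and Fezf2. Replicate 2 was the lowest for Bcl11a, Tle4, Tbr1 and Foxp2 and the highest for none. In replicate 4 the Rorb paralog Rora was at its highest too, at 2.82 TPM. Of 7 microglia markers 5 lay above 1 TPM, where 75.7% of protein-coding genes did, and none was at 0 in any library. In replicate 4 they summed to 17.9 TPM, against 30.1 to 39.3 TPM in the others. Their part in the Rorb value was not tested.

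The number of genes within 0.05 of a layer gene in their course over the 4 libraries ran from 19 for Foxp2 to 740 for Cux2. Likeness was the root mean square distance between deviations from the mean of log2(TPM + 1), over 10782 protein-coding genes. The deviations were not scaled, so a gene that varies little, such as Cux1 or Cux2, lies close to every other gene that varies little. All libraries belong to a single group, so the distances describe 4 libraries and carry no test. For Cux1 the nearest gene was Eif2s3x (distance 0.0030) and 714 genes lay within 0.05; for Foxp2 it was Slc4a10 (0.013) and 19 genes lay within 0.05. For Rorb it was Trim59 (0.018), with 76 genes within 0.05. The nearest genes were Srsf11 for Bcl11a, Yipf6 for Cux2, Rpl28 for Fezf2, H2-T24 for Tle4, Map2k2 for Tbr1 and Tpm1 for Bcl11b.

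Of 19 further upper-layer genes, 18 lay above and 1 below 1 TPM by edgeR, where 75.7% of protein-coding genes lay above. Their median was 5.09 on the log2(TPM + 1) scale, against 3.31 over protein-coding genes. Pou3f2, a POU homeodomain factor, reached 415 ± 53.0 TPM and its relative Pou3f3 reached 177 ± 17.5 TPM (SD, n = 4). Dkk3, which encodes a secreted Wnt modulator, was at 122 ± 7.46 TPM. The exchange factor gene Rasgrf2 was lowest, at 0.488 ± 0.12 TPM.

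The subcerebral and corticothalamic lists had lower medians than the upper-layer list; this difference was not tested. All 12 further subcerebral genes lay above 1 TPM (75.7% of protein-coding genes did), with a median of 3.66 on the log2(TPM + 1) scale, near the 3.31 of protein-coding genes. The guidance receptor Epha4 was at 103 ± 8.57 TPM, the calmodulin-binding gene Pcp4 at 50.4 ± 7.52 TPM, S100a10 at 44.5 ± 2.92 TPM and the adhesion gene Cntn6 lowest, at 1.69 ± 0.675 TPM. Of 12 corticothalamic genes, which include the Foxp2 paralog Foxp1, 11 lay above 1 TPM. Their median was 2.69 on that scale, below that of protein-coding genes. Nfia and Nfib, which progenitors and glia also use, were at 623 ± 76.8 and 437 ± 50.3 TPM. Ntsr1, a receptor gene of corticothalamic neurons, was at 15.3 ± 3.34 TPM, and the Gata cofactor gene Zfpm2 at 1.20 ± 0.291 TPM (edgeR adjusted p = 0.167).

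Partners and targets of the 9 factors were measured alongside. All 12 genes of a list of Ski and the NuRD corepressor complex, through which the Bcl11 proteins act, lay above 1 TPM, with a median of 5.72 on that scale, against 3.31 over protein-coding genes, of which 75.7% lay above 1 TPM. Its histone-binding subunits Rbbp4 (18.05% of exonic bases opposite another gene) and Rbbp7 were at 221 ± 15.01 and 101 ± 4.58 TPM, the deacetylase Hdac2 at 87.4 ± 4.77 TPM, and Ski, a transcriptional corepressor, at 20.8 ± 2.80 TPM. Of 8 genes tied to Tbr1, 6 lay above 1 TPM and 2 were not called, with a median of 3.44 on the same scale. Its co-activator Cask was at 95.0 ± 10.4 TPM, Auts2 at 27.5 ± 1.45 TPM and Cdh8 at 17.9 ± 0.953 TPM. Reln, a target of Tbr1 in Cajal-Retzius cells, was at 0.748 ± 0.256 TPM (edgeR adjusted p = 0.0774).

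Several of the 9 genes are also used outside projection neurons, and markers of those cells were present at different levels. By edgeR 75.7% of protein-coding genes lay above 1 TPM and 11.5% below, so counts of such markers alone say little. Tbr1 is made in Cajal-Retzius and subplate neurons. Of 7 Cajal-Retzius markers, 2 lay above 1 TPM, Calb2 (49.8 ± 6.65 TPM) and Nhlh2 (1.74 ± 0.466 TPM), and 3 below. The transcription factor gene Trp73 had 19, 0, 1 and 21 counts and Lhx5 had 0, 12, 0 and 1. Of 8 subplate markers, 5 lay above 1 TPM, led by Lpar1 at 25.0 ± 0.74 TPM and Nr4a2 at 12.3 ± 0.926 TPM, and Inpp4b was below it at 0.393 ± 0.157 TPM. Nxph4, also of that list, was at 6.35 ± 0.558 TPM. The 8 together held 49.8 to 56.8 TPM. The 7 Cajal-Retzius markers held 48.4 to 61.5 TPM, nearly all from Calb2, which interneurons also express. The means of Trp73, Lhx1, Lhx5, Reln and Ebf3 lay between 0.110 and 0.748 TPM. Their part in the level of Tbr1 was not tested.

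Bcl11b and Foxp2 are strong in striatal projection neurons, and Bcl11b also in interneurons. Of 10 striatal markers, 5 lay above and 1 below 1 TPM, and together they held 20.3 to 24.0 TPM, with Penk at 7.88 ± 1.84 TPM, Drd1 at 4.34 ± 1.06 TPM, Ppp1r1b at 2.56 ± 0.478 TPM and Drd2 at 0.339 ± 0.208 TPM. Of 11 interneuron markers, 8 lay above and 1 below 1 TPM, and the list held 216 to 367 TPM, mostly from Npy (157 ± 37.2 TPM) and Sst (77.1 ± 24.6 TPM). Since 75.7% of protein-coding genes lay above 1 TPM and 11.5% below, the striatal and interneuron counts alone say little. Sp8 was at 43.5 ± 11.2 TPM, and Gad1, Gad2, Dlx1, Dlx5 and Lhx6 had means from 2.56 to 5.76 TPM and were all called above 1 TPM. Dlx2 was at 1.41 ± 0.208 TPM and was not called (edgeR adjusted p = 0.0566). Adarb2 was called below 1 TPM, at 0.698 ± 0.119 TPM. Nkx2-1, a gene of the medial ganglionic eminence, was at 0 in replicates 1 and 2. The interneuron sum was highest in replicate 2 and lowest in replicate 3. Bcl11b was lowest in replicate 3 (8.96 TPM) and next lowest in replicate 2 (9.76 TPM). The part of these cells in the levels of Bcl11b and Foxp2 was not tested.

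Rorb is made by thalamic neurons too. Of 6 thalamic markers, 2 lay above 1 TPM, where 75.7% of protein-coding genes did. The 2 were Slc17a6, a vesicular glutamate transporter that young cortical neurons share (57.6 ± 5.64 TPM), and Tcf7l2 (36.2 ± 3.16 TPM). Gbx2, the most specific of the 6, was at 0.572 ± 0.155 TPM (edgeR adjusted p = 0.0980), and 43.5% of its exonic bases lie opposite another gene. The 6 thalamic markers held 86.2 to 105 TPM, and their part in the level of Rorb was not tested. Of 7 intermediate progenitor markers 6 lay above 1 TPM, led by Gadd45g at 511 ± 64.1 TPM, and Neurog1 had 5 counts in all. Of 16 genes of other organs, 2 lay above 1 TPM, Gcg (5.16 ± 1.12 TPM) and Pnlip (4.38 ± 0.828 TPM). Both means were close to that of Foxp2, the lowest of the 9 genes, while the median of the 16 was 0.0654 TPM.

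The length used for scaling changed the order of these genes, whose intron content is very unequal. The deposited TPM follows the whole gene span: for 8666 of 9095 genes (95.3%) the ratio of count to deposited TPM lay within 0.01 (log2) of a constant times the span, against 0.726% with merged exons. Foxp2 spans 540629 bases with 16346 exonic bases, a ratio of 33.1, and Tle4 has a ratio of 26.3. Tbr1 spans 11185 bases and Fezf2 6096 bases, with ratios of 2.04 and 2.00. In the authors' table Fezf2 was the highest of the 9, at 45.9 ± 3.82 TPM (SD, n = 4), followed by Bcl11a at 29.4 ± 2.76 and Tbr1 at 19.0 ± 1.93. Cux1 was at 13.7 ± 0.465, Cux2 at 9.42 ± 0.417, Rorb at 3.84 ± 0.695, Bcl11b at 3.13 ± 0.32 and Tle4 at 1.96 ± 0.219.

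On that scale Foxp2 was at 0.521 ± 0.119 TPM, and limma on log2(TPM + 1) placed it below 1 TPM, at -0.40 ± 0.052 from that level (SE; adjusted p = 0.000724), as it did 28.0% of 14795 genes. By edgeR the exon scale put it above 1 TPM by 2.29 ± 0.096 (log2, SE), and the longest transcript, 6760 bases, by 3.16. These edgeR values are log2 levels without the added 1, so only their direction can be set against the limma value. Merged exons can also understate a gene whose long alternative ends are little used: they were 2.42 times the longest transcript for Foxp2 and 2.20 times for Bcl11a. With the longest transcript, Bcl11a moved ahead of Cux1, at 102 ± 9.68 against 73.3 ± 2.42 TPM, and Foxp2 (8.97 ± 2.05 TPM) ahead of Bcl11b (7.75 ± 0.802 TPM). As CPM, counts scaled to the library total with no length, Cux1, Bcl11a and Cux2 kept the first 3 ranks and the 5 deep-layer genes lay together between 19.3 and 26.7.

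**Figure D4:**
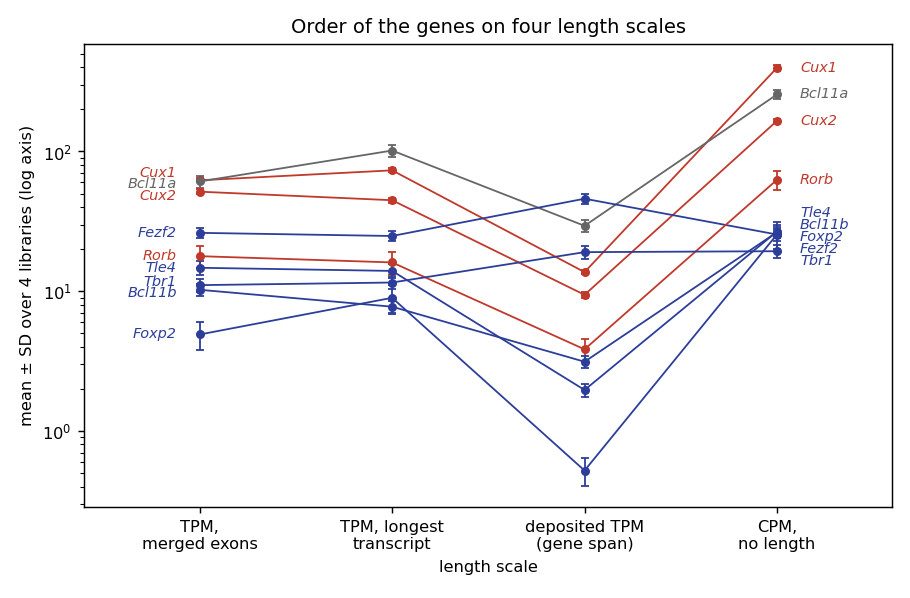
Mean ± SD over 4 libraries of each gene on 4 scales (log axis): TPM by merged exons, TPM by longest transcript, the deposited TPM, and CPM, with no length; red lines are upper-layer, blue deep-layer and grey Bcl11a. Fezf2 and Tbr1 rise to ranks 1 and 3 on the deposited TPM, while Foxp2 drops to 0.521 TPM.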

How the data were processed

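The 9 genes, the gene lists and the tests were chosen with earlier results of these data known. The submitters' processing notes name bcl2fastq 2.19.1, STAR 2.5.2b and the build GRCm38. For counter, strand and annotation release nothing is stated (not given in the sources used here). Per the labels' protocols, cDNA was primed with poly-dT, template-switched, amplified and sheared. The deposited counts are whole reads per Ensembl gene, not normalised. The authors' deposited TPM table holds 15648 genes and was scaled per library; its length basis was tested from the values and is the gene span.

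TPM was recomputed from counts with merged exon lengths of GENCODE M21 (GRCm38), matched by 45143 of 45706 identifiers; the rest held 0.12% to 0.125% of counts. Genes with at least 10 counts were tested against 1 TPM by an edgeR 4.0.16 quasi-likelihood F test (R 4.3.3) with the expected count at 1 TPM as offset, two-sided, Benjamini-Hochberg adjusted, threshold 0.05. The null deviance was computed directly, since the package's own test takes no single-column design. Spread against the abundance trend was tested in edgeR above a minimum of 40 counts. Log ratios used a pseudocount of 1. Both edgeR steps were tested on simulated data. DESeq2 1.42.0 and limma 3.58.1 served as alternatives. Named were all 9 genes and their paralogs, in each other list the 3 highest and the lowest gene, and each gene's nearest neighbour in course; marker lists were reported in part. Other marker genes (Trp73, Lhx1, Ebf3, Gad1, Gad2, Dlx1, Dlx2, Dlx5, Lhx6 and Adarb2) were added after their values were seen, as was the summed comparison on other length scales. Some genes that the rule names are not reported here. Tle5 is listed as Aes.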

Additional observations from a re-analysis of the deposited data

Results flagged for a closer look

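Among 79 named genes whose 4 libraries were not all equal, 6 had a library that stood apart from the other 3 by more than Dixon's 95% limit for 4 values allows. Chance gives about 1 such gene in 20 for each test. None of the 9 layer identity genes was among them. Replicate 4 was the high library for Tbx21 (0.732 TPM), Tle1 (12.04 TPM), Nfia (737 TPM) and Cask (111 TPM). Replicate 2 was the high library for Lhx5 (0.396 TPM), and replicate 1 the low library for Btg2 (392.4 TPM).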

How the results depend on the processing

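All 9 genes stayed above 1 TPM with TMM scaling, DESeq2, no filter, the longest transcript and without each library in turn (9 in each). On the deposited TPM, limma placed 8 above, and Foxp2 turned to below 1 TPM, at -0.40 on the log2(TPM + 1) scale. By medians, deep minus upper stayed negative on every scale: -1.87 with the longest transcript, -2.64 without length correction, -1.34 on the deposited TPM, and -2.20 to -2.07 without each library. By sums, the deep to upper ratio turned on the deposited TPM (2.62), was 0.20 without length correction, and was 0.49 to 0.52 without each library; these settings were added after seeing the data. Among pairs in the same order in all libraries, those that turned were Cux2 over Fezf2 (-2.17) and Tle4 over Tbr1 (-2.76) on the deposited TPM, Fezf2 over Rorb without length correction (-1.26), Bcl11b over Foxp2 with the longest transcript (-0.17), Tle4 over Tle1 with the longest transcript (-0.19), without length correction (-0.14) and on the deposited TPM (-0.72), and Tle4 over Tle6 on the deposited TPM (-0.67). Among the other pairs, Cux1 over Bcl11a turned to -0.46 with the longest transcript, -1.04 on the deposited TPM and -0.019 without replicate 2, Tbr1 over Bcl11b to -0.43 without length correction, and Foxp2 over Foxp4 to 0.46 with the longest transcript and 1.21 without length correction. The length settings change only the length each gene is divided by, and for the deposited TPM also the genes listed. Without each library, 5 to 6 neighbour pairs and 14 to 15 of 15 paralog pairs kept 1 order with a mean above its SD; paralog pairs that did so in the reported direction were 13 with the longest transcript, 13 without length correction and 11 of 14 on the deposited TPM. No gene of the 9 was called more variable under any setting (0 in each); at an unadjusted p under 0.05 there was 1 without replicate 2 (Rorb) and 1 without replicate 4 (Foxp2). Over all genes, 2532 lay below 1 TPM, against 6564 with no filter, 4137 on the deposited TPM, and 1525, 1584 and 1536 without replicates 1, 2 and 3. No paired analysis was possible because the series has a single group. Depth did not limit the 9 genes, each with at least 491 counts in every library.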
